A study of Mus musculus with 24 samples.

Results

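This account follows 10 genes of iron handling and haem metabolism, Tfrc, Steap3, Slc11a2, Slc40a1, Fth1, Ftl1, Ireb2, Alas1, Fech and Hmox1, through 24 libraries of mouse long-term haematopoietic stem cells. The members were taken by gene name, 1 row each, from a table of 38215 genes, and all 10 passed the filter on low counts that left 15879 genes. Every recipient was a lethally irradiated Ptprc a/b C57BL/6J mouse given 11 Gy and then 2000000 bone marrow cells from a Jak2 fl-V617F/+ Tg(E2A-cre) donor mixed 1:1 with a congenic Jak2+/+ donor, so each mouse carried both genotypes. Cells were sorted as lineage-negative, Sca1+, c-Kit+, CD150+ and CD48-, and split by CD45 allele into wild-type (WT, C57Bl/6N Ptprca) and Jak2V617F (C57Bl/6N Jak2V617F/+ Tg(E2A-cre)) cells. Mice received vehicle (PBS with 0.1% BSA) or 600 ng pegylated interferon alpha (pegIFN) under the skin each week, 5 doses over 4 weeks, with cells taken 48 hours after the final injection. The 12 mice gave 4 groups of 6 libraries, with WT and Jak2V617F cells of the same mouse forming a pair. Animal ages are not given in the labels. The WT donors carried neither the Cre transgene nor the CD45.2 allele, so mutation, transgene and CD45 allele cannot be told apart in comparisons of genotype.

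Iron bound to transferrin enters cells through the transferrin receptor, is reduced in the endosome by a STEAP reductase and is moved into the cytosol by the divalent metal transporter. There it is stored in ferritin, leaves through ferroportin, or goes to mitochondria, where haem and iron-sulfur clusters are made. When iron is scarce, iron regulatory proteins bind a short hairpin, the iron-responsive element, in the untranslated regions (UTRs) of messenger RNAs, which holds back ferritin translation and stabilises the transferrin receptor message. Red cell precursors run this system at a high rate, and stem cells are known to be sensitive to iron overload.

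The hairpins are shown to mark which members hold a match to the iron-responsive element by letters and pairing, and binding was not measured. Coding transcripts of GENCODE M21 (GRCm38) were searched for a bulged C, 5 bases, the loop CAGTGN and 5 bases pairing with the first 5 in at least 4 of 5 positions, G-U pairs allowed. Each line gives 30 bases of the transcript, 5′ to 3′, with the bulged C and the 6 bases of the loop in capitals.
Fth1, 5′ UTR, chr19:9982732-9982761, plus strand: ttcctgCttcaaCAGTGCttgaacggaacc
Ftl1, 5′ UTR, chr7:45459778-45459807, minus strand: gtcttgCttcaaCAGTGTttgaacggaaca
Slc40a1, 5′ UTR, chr1:45925464-45925493, minus strand: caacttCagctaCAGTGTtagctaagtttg
Slc11a2, 3′ UTR, chr15:100395152-100395181, minus strand: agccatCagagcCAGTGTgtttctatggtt
Tfrc, 3′ UTR, chr16:32631219-32631248, plus strand: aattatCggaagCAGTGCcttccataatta
Tfrc, 3′ UTR, chr16:32631598-32631627, plus strand: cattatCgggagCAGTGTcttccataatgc
Tfrc, 3′ UTR, chr16:32631663-32631692, plus strand: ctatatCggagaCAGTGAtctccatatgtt
Tfrc, 3′ UTR, chr16:32631710-32631739, plus strand: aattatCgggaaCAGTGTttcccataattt
Of the 10 members, 5 held a match, against 4.88% of 21877 coding genes, and 7 of the 8 sites paired at all 5 stem positions. The pattern describes the iron-responsive element and the members were picked as iron and haem genes, so this contrast is a description and no test. The Slc11a2 site paired at 4 positions and lies in 1 annotated transcript, Slc11a2-205, whose share of the gene's reads cannot be read from a count per gene. The ferritin sites shared 26 of 30 bases, whereas pairs of Tfrc sites shared 18 to 25. No match was found in the UTRs of Steap3, Ireb2, Alas1, Fech or Hmox1, which says only that these letters and this pairing are absent there. Counts of RNA do not show translation, so an effect of these sites on ferritin or ferroportin protein would not be seen here.

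Library totals ran from 24620821 to 39740656 expected counts. The sorted cells carried the stem cell genes Kit (275 to 1190.0 CPM, counts scaled per 1000000 of the library), Hlf (58.0 to 582 CPM) and Slamf1, which encodes CD150 (28.01 to 46.8 CPM), in every library. With pegIFN, 28.2% of all genes tested were called higher and 28.7% lower in WT cells, and 21.7% and 22.3% in Jak2V617F cells, by the test described below, and the marker counts are read against these shares. Of 12 stem cell markers 10 fell in each genotype. The 1 that rose was Ly6a, which encodes Sca1, an antigen of the sort gate, by 2.00 on the log2 scale in WT and 2.31 in Jak2V617F cells, and its part in the results was not tested. Kit, which encodes c-Kit of the same gate, was among those that fell, with a change of -0.87 in each genotype. Kit was also called lower in Jak2V617F than WT cells, at -0.60 under vehicle and -0.60 under pegIFN, and its part was not tested either. Of 10 early erythroid markers 7 rose in each genotype. Of 11 tested late erythroid markers 7 fell in each, and Rhag rose by 1.02 in Jak2V617F cells. In WT cells 17 of 18 proliferation genes rose with pegIFN, and in Jak2V617F cells 7 of 18 rose. Under vehicle 11 of the 18 were higher in Jak2V617F than WT cells (median log2 difference 0.39), where 8.48% of all genes were higher. Megakaryocyte markers had 2 of 9 higher and 1 lower in WT cells, hypoxia targets 1 higher and 6 lower of 13, B cell markers 3 of 6 lower, and T and NK markers 1 of 2 higher. In Jak2V617F cells the same lists had 1 of 9 lower, 5 of 13 lower, 1 of 6 lower and 1 of 2 higher, with no other calls. Only 2 of the 9 listed T and NK genes passed the filter, and the 1 called in each genotype was Nkg7. Among granulocyte markers, Mpo was present in every library, at 47.3 to 772 CPM. Of the 12 granulocyte markers 5 were higher in Jak2V617F than WT cells under pegIFN, where 4.16% of all genes were. In these bulk samples, fewer cells of a type and less RNA per cell cannot be told apart.

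The libraries labelled WT vehicle replicate 4 and Jak2V617F pegIFN replicate 1 stood apart on sex-linked genes. Xist was 599.8 CPM in the first, against 1937 to 3310 CPM in the other 5 libraries of its group, and Y-linked genes summed to 249.6 CPM against 20.2 to 75.7, beside 189.9 to 243 CPM in the Jak2V617F vehicle libraries. In the second, Xist was 654 CPM against 40.8 to 110.1 CPM in its group, and Y-linked genes summed to 149 CPM against 158 to 216. In the other WT libraries Xist was 1801 CPM or more and in the other Jak2V617F libraries 110.1 CPM or less, so donor genotype and donor sex cannot be told apart either. Y-linked genes summed to 2.17 to 22.7 CPM in the WT pegIFN libraries, mostly below the 20.2 to 75.7 CPM of the other WT vehicle libraries. Leaving out the 2 libraries does not remove this difference between treatments, and its part in the results was not tested. Whether either of the 2 libraries that stood apart held cells of the other genotype was not tested, so their values stand for the label only. For the members, fitted differences whose call rests on these libraries are given with and without them. The other iron and haem genes, the marker lists and the correlations are given only with both libraries included. How far those results rest on these libraries was not tested.

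Fitted with edgeR's quasi-likelihood test, pegIFN raised 4 of the 10 genes in WT cells (Steap3, Slc11a2, Slc40a1 and Alas1) and lowered none. Over all genes tested, 56.8% were called in that comparison, 28.2% higher and 28.7% lower. In Jak2V617F cells Steap3, Slc11a2 and Alas1 rose and none fell, where 44% of all genes were called, 21.7% higher and 22.3% lower. The members were thus called no more often than genes in general, and their median log2 change was -0.05 in WT and 0.14 in Jak2V617F cells, beside -0.01 and -0.01 for all genes. With upper-quartile scaling the share of higher genes among all called genes moved from 49.6 to 39.3% in WT, from 49.3 to 38.8% in Jak2V617F cells and, for genotype under vehicle, from 66.7 to 54.7%.

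**Figure D1:**
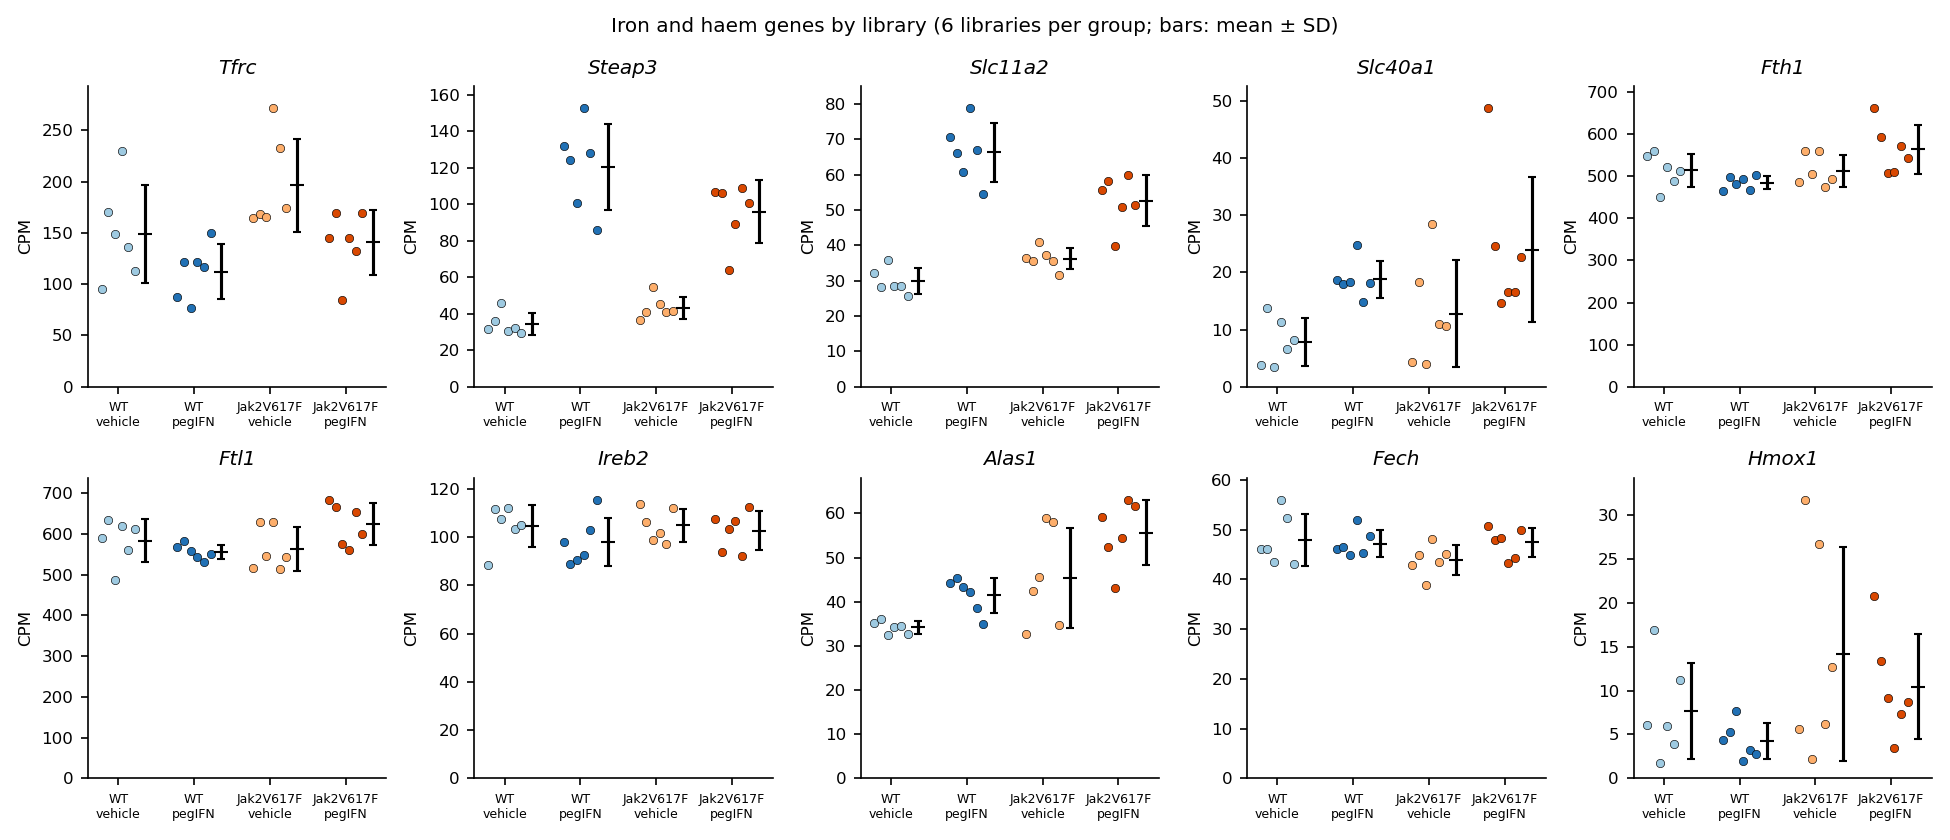
CPM of the 10 genes (vertical axes, linear, starting at 0) in each of the 24 libraries by group; points are libraries and bars the mean and SD of 6. Steap3 rose from 29.6 to 45.9 CPM in WT vehicle libraries to 85.7 to 153 CPM after pegIFN, while Fth1, Ftl1, Ireb2 and Fech lay within narrow bands in all 4 groups.

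Between Jak2V617F and WT cells of vehicle mice, 1 of the 10 genes was called, Alas1, which was higher. The background was 12.7% of all genes, 8.48% higher and 4.23% lower. Under pegIFN, Fth1 and Alas1 were higher and Slc11a2 lower in Jak2V617F cells, where 8.59% of all genes were called, 4.16% higher and 4.43% lower. The difference between the genotypes' responses was called for 0% of all genes, higher or lower, although 1338 of 15879 genes and 4 of the 10 members (Steap3, Slc11a2, Fth1 and Ftl1) had an unadjusted p under 0.05. DESeq2 called 46 genes for that difference, among them Slc11a2, with an adjusted p of 0.0123.

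Fitting the mouse as a block, which compares the WT and Jak2V617F cells of the same animal, raised the members called for genotype from 1 to 4 under vehicle (Tfrc, Steap3, Slc11a2 and Alas1, all higher) and from 3 to 7 under pegIFN (Tfrc, Fth1, Ftl1, Alas1 and Hmox1 higher, Steap3 and Slc11a2 lower). The blocked background was 31.1% of all genes under vehicle and 24.6% under pegIFN. For the difference between responses the block called Steap3 and Slc11a2 among the members and 3.33% of all genes. Leaving out the 2 libraries that stood apart, no member was called for genotype under either treatment in the fit without a block. In the blocked fit without their mice 3 were called under vehicle and 2 under pegIFN. Of 15814 genes tested in that fit, 3959 were called under vehicle and 2530 under pegIFN.

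**Figure D2:**
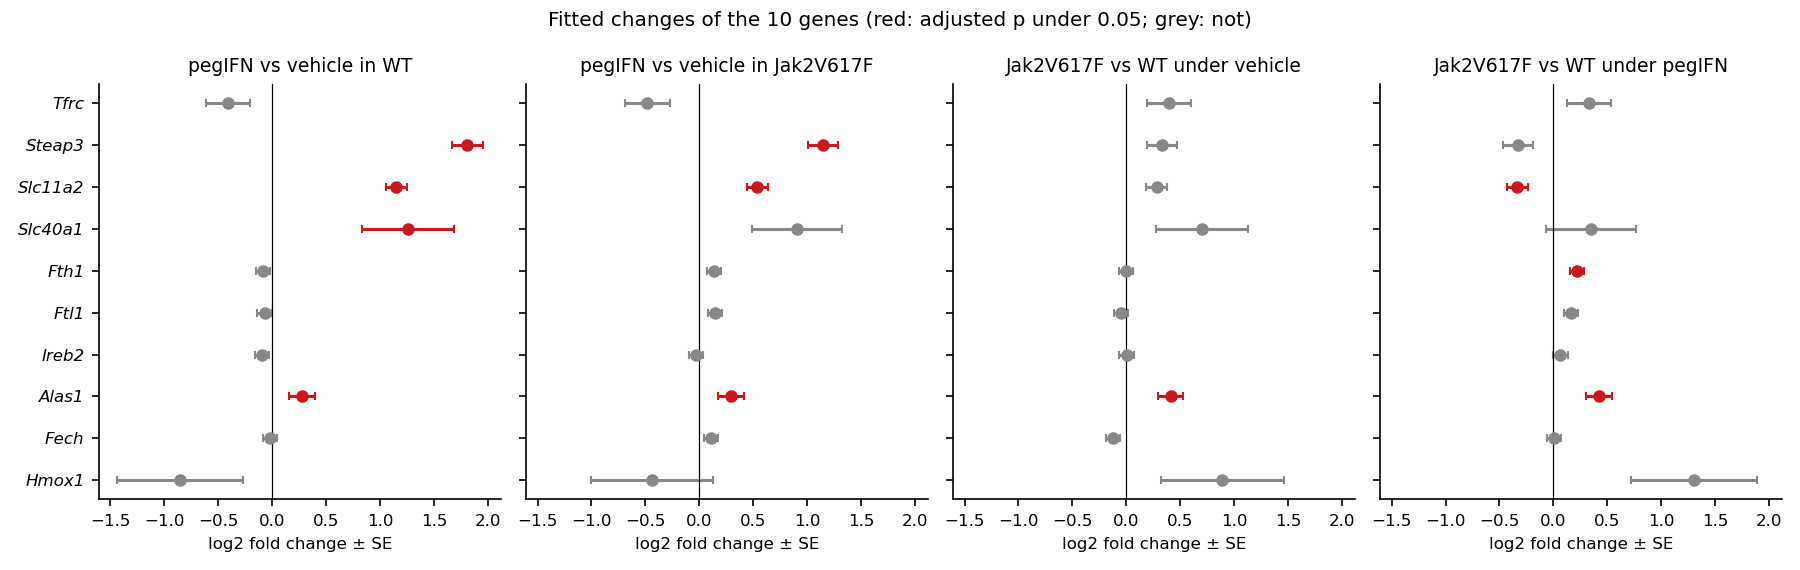
Fitted log2 fold changes with their standard errors (horizontal axes) for the 10 genes in the 4 comparisons; red points have an adjusted p under 0.05 in edgeR's quasi-likelihood test. Steap3, Slc11a2 and Alas1 are red and to the right of 0 in both comparisons of pegIFN with vehicle, and Hmox1 has the widest bars.

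Levels are set between genes only per kilobase of annotated exon, since a long transcript draws more reads, and the summed exons of all isoforms make these values low for genes with long rare isoforms. In WT vehicle cells Ftl1 stood at 435 ± 39.97 CPM per kb (SD, n = 6) and Fth1 at 148 ± 11.4. Tfrc followed at 24.1 ± 7.66 and Ireb2 at 11.0 ± 0.913 CPM per kb. Ferritin messages were thus the most abundant of the set by this scale, ahead of the receptor that brings the iron in. Steap3, Alas1, Slc11a2, Hmox1 and Fech lay between 3.46 and 6.02 CPM per kb and Slc40a1 was lowest at 0.871 ± 0.458. After pegIFN, Steap3 in WT cells reached 21.1 ± 4.16 CPM per kb, beside 18.1 ± 4.27 for Tfrc, and these overlapped within their spread.

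Tfrc, the transferrin receptor (chr16:32608920-32632794), ran from 95.6 to 229 CPM in WT vehicle libraries (median 143) and from 76.3 to 149.8 CPM after pegIFN (median 119). In Jak2V617F cells it ran from 165 to 271 CPM with vehicle (median 172) and from 84.3 to 169 CPM with pegIFN (median 145). The groups overlapped within each genotype, with lower values more common after pegIFN. The log2 change was -0.41 ± 0.20 (SE) in WT (adjusted p = 0.0927) and -0.48 ± 0.20 in Jak2V617F cells (adjusted p = 0.0608), neither called. Both values rested partly on single libraries: without WT vehicle replicate 1 the WT change was -0.49 (adjusted p = 0.0434), and without the 2 libraries that stood apart it was -0.24 (adjusted p = 0.319). Without WT vehicle replicate 4 the Jak2V617F change of -0.48 was called (adjusted p = 0.0419). It was also called with upper-quartile factors, DESeq2, a filter of 1 CPM, only the groups compared or limma-voom (adjusted p 0.0307 to 0.0488), and the WT change with upper-quartile factors (-0.50, adjusted p = 0.0457).

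Jak2V617F cells had more Tfrc RNA than WT cells of the same animal in 5 of 6 vehicle mice and 6 of 6 pegIFN mice. The log2 difference was 0.40 ± 0.20 under vehicle (adjusted p = 0.197) and 0.33 ± 0.20 under pegIFN (adjusted p = 0.344) without the block. With the mouse as a block it was 0.43 (adjusted p = 0.0105) and 0.33 (adjusted p = 0.0469), and without the mice of the 2 libraries the vehicle value was 0.46 (adjusted p = 0.0109) while the pegIFN value was 0.24 and no longer called (adjusted p = 0.176). Tfrc was therefore called higher in Jak2V617F cells only when animals were compared with themselves. Summed proliferation genes ran from 3145 to 5023 CPM in WT vehicle and from 4239 to 5932 CPM in Jak2V617F vehicle libraries, higher in Jak2V617F cells of 6 of 6 mice, and their part in the Tfrc difference was not tested.

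Steap3, the ferrireductase that acts on endosomal iron (chr1:120190757-120272705), had a larger fitted change than the other 9 genes in both comparisons with vehicle, except that Slc40a1 exceeded it with 1 surrogate variable (2.35 against 1.59 in WT and 1.74 against 0.96 in Jak2V617F cells) and, in Jak2V617F cells, without Jak2V617F vehicle replicate 4 (1.31 against 1.17). In WT cells it ran from 29.6 to 45.9 CPM with vehicle (median 32.02) and from 85.7 to 153 CPM with pegIFN (median 126). In Jak2V617F cells it ran from 36.8 to 54.5 CPM (median 41.4) and from 64.3 to 109 CPM (median 104). No pegIFN library overlapped a vehicle library of its genotype. The log2 change was 1.81 ± 0.14 in WT (adjusted p = 5.25e-10), from a mean of 34.4 ± 6.08 to 121 ± 23.7 CPM (SD, n = 6). It was 1.15 ± 0.14 in Jak2V617F cells (adjusted p = 1.21e-06), from 43.4 ± 6.06 to 96.0 ± 17.1 CPM. Both calls held in every alternative run, those without the 2 libraries included.

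Slc11a2, the divalent metal transporter DMT1 that carries the reduced iron out of the endosome (chr15:100387898-100425072), ran from 25.6 to 35.98 CPM in WT vehicle libraries (median 28.5) and from 54.6 to 78.8 CPM after pegIFN (median 66.6). In Jak2V617F cells the ranges were 31.6 to 40.9 CPM (median 36.1) and 39.9 to 59.9 CPM (median 53.6). The WT groups did not overlap, and in Jak2V617F cells 1 pegIFN library fell within the vehicle range. The log2 change was 1.15 ± 0.10 in WT (adjusted p = 9.99e-10) and 0.54 ± 0.10 in Jak2V617F cells (adjusted p = 9.51e-05), called in every alternative.

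The order of Steap3 and Slc11a2 between genotypes turned round with treatment. In vehicle mice both were higher in Jak2V617F than WT cells in 6 of 6 animals, by 0.18 to 0.56 (log2) for Steap3 and 0.18 to 0.39 for Slc11a2. In pegIFN mice Slc11a2 was lower in Jak2V617F cells of 6 of 6 animals, by differences of -0.63 to -0.08, and Steap3 was lower in 5 of 6, at -0.78 to 0.23. The sign of the within-mouse difference thus separated vehicle from pegIFN mice for Slc11a2 in all 12 animals and for Steap3 in 11 of 12.

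For Slc11a2 the genotype difference was 0.28 ± 0.10 under vehicle (adjusted p = 0.0548, with the block 0.00400) and -0.33 ± 0.10 under pegIFN (adjusted p = 0.0311, with the block 0.00145). The pegIFN call was lost in the fit without a block when any of WT pegIFN replicates 1, 2, 4 and 5 or Jak2V617F pegIFN replicates 4 and 6 was left out (adjusted p 0.0556 to 0.0817) or without the 2 libraries (adjusted p = 0.0551). The vehicle difference was called without WT pegIFN replicates 4 or 6, WT vehicle replicates 1 or 3, Jak2V617F pegIFN replicate 3 or Jak2V617F vehicle replicate 6 (adjusted p 0.0193 to 0.0497). For Steap3 the difference was 0.33 ± 0.14 under vehicle (adjusted p = 0.109, with the block 0.0245) and -0.33 ± 0.14 under pegIFN (adjusted p = 0.137, with the block 0.0286). Steap3 was also called without WT vehicle replicate 3 under vehicle (0.44, adjusted p = 0.0346) and without WT pegIFN replicate 6 under pegIFN (-0.42, adjusted p = 0.0375). Blocked and without the mice of the 2 libraries, the Slc11a2 differences were called in both treatments (adjusted p = 0.0217 and 0.00741), and the Steap3 differences were called in neither (adjusted p = 0.105 and 0.0742). DESeq2 (adjusted p = 0.0436) and 1 surrogate variable (adjusted p = 0.0283) also called the Slc11a2 difference under vehicle.

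The difference between responses was tested directly. For Slc11a2 the Jak2V617F response was smaller by a log2 difference of -0.61 ± 0.14 (adjusted p = 0.151), and with the block it was -0.62 ± 0.09 (adjusted p = 0.00461). It was also called without WT pegIFN replicate 6 (-0.67, adjusted p = 0.0260), and blocked without the mice of the 2 libraries (-0.60, adjusted p = 0.0227). For Steap3 the difference was -0.66 ± 0.20 (adjusted p = 0.365), with the block -0.67 ± 0.14 (adjusted p = 0.0261) and, blocked without those mice, -0.63 (adjusted p = 0.113). The smaller response of Slc11a2 thus held with the block with or without the doubted animals, and that of Steap3 held with the block only with them.

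**Figure D3:**
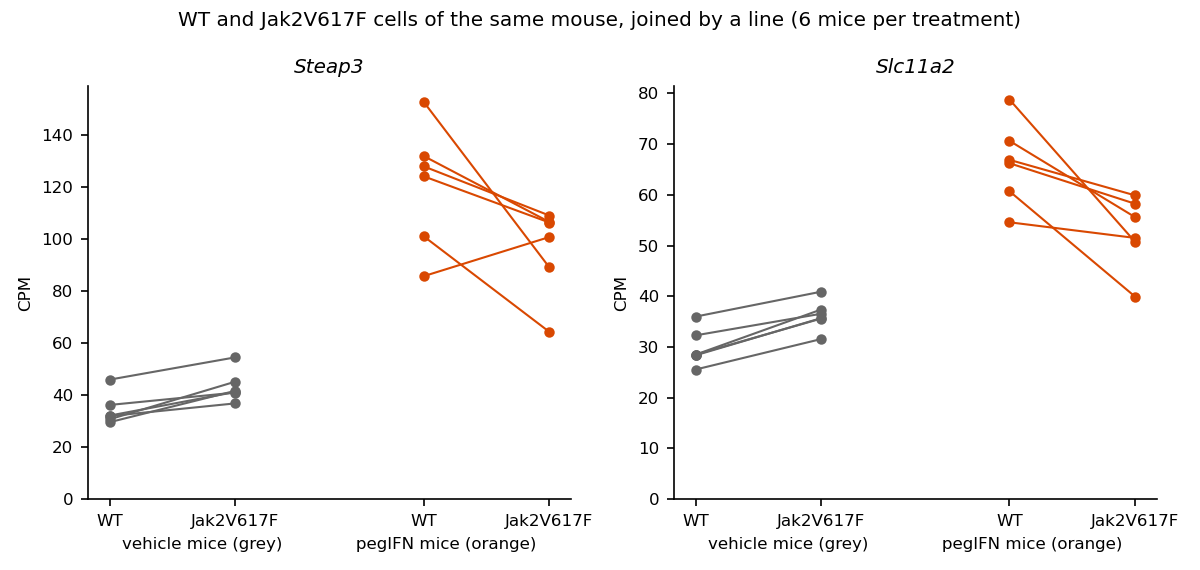
CPM of Steap3 and Slc11a2 (vertical axes, linear) in WT and Jak2V617F cells, with a line joining the libraries of each mouse, vehicle mice in grey and pegIFN mice in orange. All 6 grey lines rise for both genes, while all 6 orange lines fall for Slc11a2 and 5 of 6 fall for Steap3.

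Steap3 and Slc11a2 also had each other as the most similar gene out of 15878 compared, with Pearson r = 0.98 of log2 CPM over 24 libraries and r = 0.89 after group means were removed. Necap2 came next for both, at r = 0.97. Such correlations share the treatment, the sequencing libraries and, between genotypes, the mouse, and are given as a description. Summed early erythroid markers, of which Zfpm1, Car2 and Tal1 were highest on average, were also higher with pegIFN, although Car2 and Tal1 were not called in either genotype (-0.15 and 0.10 in WT, 0.11 and 0.10 in Jak2V617F cells). Between genotypes the sum was lower in Jak2V617F cells of 6 of 6 vehicle mice, in which Steap3 and Slc11a2 were higher, and of 6 of 6 pegIFN mice. Of the 10 markers only Car2 was called lower under vehicle, at -0.35 (adjusted p = 0.00985), and none was called higher. Zfpm1 (0.0011) and Tal1 (-0.07) were not called, and the median log2 difference of the list was -0.05. The lower vehicle sum thus does not show that these markers were lower as a set. Under pegIFN the median was -0.22, with 1 of 10 called lower. The sums ran from 1679 to 2055 CPM in WT vehicle and 2544 to 3342 CPM in WT pegIFN libraries, and from 1547 to 1937 and 1923 to 2672 CPM in Jak2V617F cells, and their part in the result was not tested.

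RefSeq start-site windows of 300 bases on GRCm38.p6 were at hand for 6 of the members, in 12 windows, 4 of them for Steap3. There were none for Slc11a2, Slc40a1, Fech or Hmox1, which were thus not searched. The interferon regulatory factor motif AANNGAAA, on either strand, was in none of the 12, and in 23.9% of 32851 windows of the same length. The E-box CACGTG and the antioxidant response motif TGACNNNGC were also in none of the 12, against 7.15 and 12.4% of all windows. This says only that these letters are not in these windows.

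**Figure D4:**
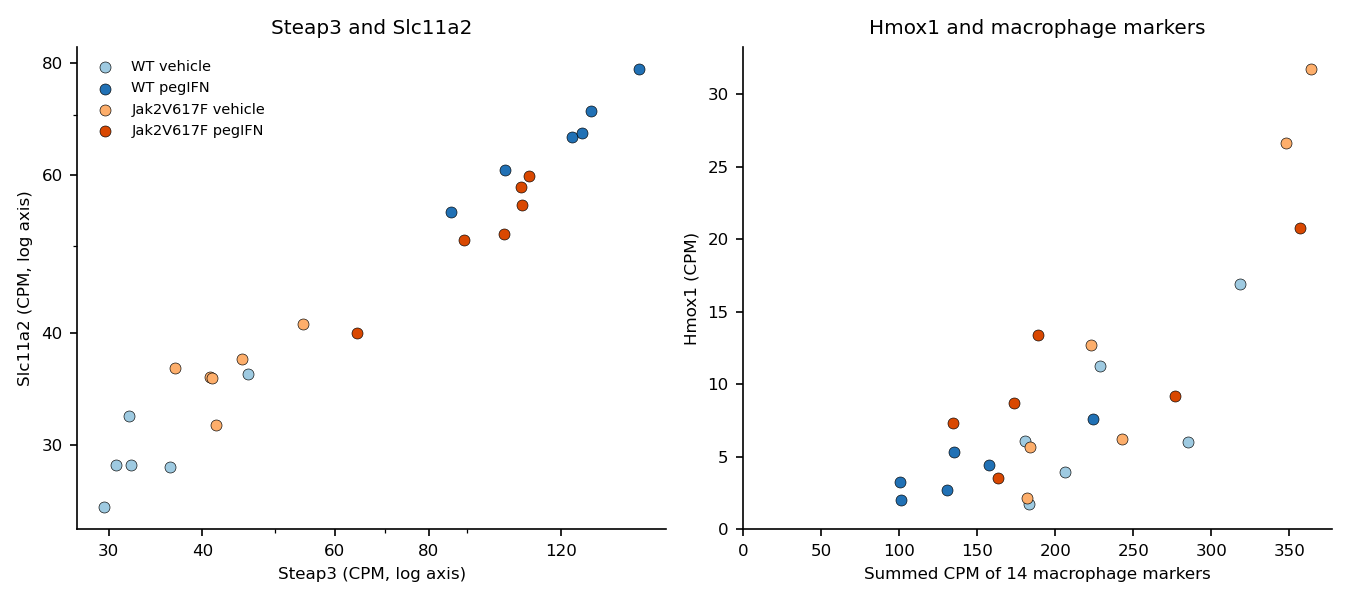
Left, Slc11a2 against Steap3 (CPM, both axes logarithmic); right, Hmox1 (CPM) against the summed CPM of 14 macrophage markers; each point is 1 of 24 libraries, coloured by group. Steap3 and Slc11a2 lie along 1 line from the WT vehicle libraries to the WT pegIFN libraries. The 4 libraries with the highest Hmox1 also have the highest macrophage sums, of which Lyz2 makes up most on average.

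Slc40a1, ferroportin and the iron exporter (chr1:45908070-45925594), was the least abundant member per kilobase. In WT cells it ran from 3.42 to 13.7 CPM with vehicle (median 7.34) and from 14.9 to 24.8 CPM with pegIFN (median 18.2). In Jak2V617F cells it ran from 4.03 to 28.5 CPM (median 10.8) and from 14.7 to 48.7 CPM (median 19.6). The WT groups did not overlap, and the Jak2V617F groups did. The log2 change was 1.26 ± 0.43 in WT (adjusted p = 0.0155) and 0.90 ± 0.42 in Jak2V617F cells (adjusted p = 0.0857). Without Jak2V617F vehicle replicate 4 the latter was 1.31 and called (adjusted p = 0.0146), and without the 2 libraries that stood apart it was 0.57 (adjusted p = 0.274). With limma-voom it was 1.077 (adjusted p = 0.0152) and with 1 surrogate variable 1.74 (adjusted p = 0.00427), both called. The difference between responses was -0.35 ± 0.59 (adjusted p = 0.883), with a 95% interval of -1.52 to 0.81. Vehicle Jak2V617F cells exceeded WT cells in 6 of 6 mice, at 0.70 ± 0.43 (adjusted p = 0.277), which was called only with the block and without the mice of the 2 libraries (0.41, adjusted p = 0.0445).

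The ferritin subunits, the heavy chain Fth1 with ferroxidase activity (chr19:9982703-9985092) and the light chain Ftl1 (chr7:45457944-45459884), were not called with treatment in either genotype. Fth1 ran from 452 to 559 CPM in WT vehicle libraries (median 517) and from 465 to 502 CPM after pegIFN (median 487). In Jak2V617F cells it ran from 473 to 559.6 CPM (median 500.0) and from 507 to 661 CPM (median 558). The treatment groups overlapped in both genotypes, but under pegIFN every Jak2V617F library lay above every WT library. The log2 change with pegIFN was -0.08 ± 0.06 in WT (adjusted p = 0.270) and 0.14 ± 0.06 in Jak2V617F cells (adjusted p = 0.0821). Leaving out Jak2V617F pegIFN replicate 3 or Jak2V617F vehicle replicate 4 made the latter 0.17, with adjusted p of 0.0410 and 0.0420. With upper-quartile factors the WT change was -0.17 and called (adjusted p = 0.0359).

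Fth1 was higher in Jak2V617F than WT cells of 6 of 6 pegIFN mice, by 0.22 ± 0.06 (adjusted p = 0.0338), and with the block by 0.21 (adjusted p = 0.00835). Without Jak2V617F pegIFN replicate 1, which stood apart, the difference was 0.16 (adjusted p = 0.151), and blocked without the mice of both such libraries it was 0.15 (adjusted p = 0.0618). Of the 24 fits without 1 library, 14 lost the call (adjusted p 0.0505 to 0.151): those without WT pegIFN replicates 1 to 5, WT vehicle replicates 5 and 6, Jak2V617F pegIFN replicates 1, 2, 5 and 6, or Jak2V617F vehicle replicates 3, 5 and 6. Under vehicle the difference was -0.0023 ± 0.064 (adjusted p = 0.985). The difference between responses was 0.22 ± 0.09 (adjusted p = 0.549).

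Ftl1 medians were 601 and 554 CPM in WT vehicle and pegIFN libraries (ranges 487 to 634 and 531 to 582) and 545 and 627 CPM in Jak2V617F libraries (ranges 513 to 629.9 and 560.5 to 684). These ranges overlapped in every comparison. The pegIFN change was -0.07 ± 0.07 in WT (adjusted p = 0.381) and 0.15 ± 0.07 in Jak2V617F cells (adjusted p = 0.0771), the latter called without Jak2V617F vehicle replicate 2 (0.19, adjusted p = 0.0408) or 4 (0.19, adjusted p = 0.0321). Jak2V617F cells were higher in 6 of 6 pegIFN mice by 0.16 ± 0.07 (adjusted p = 0.123, with the block 0.0200), and blocked without the mice of the 2 libraries by 0.13, which was not called (adjusted p = 0.114). With 1 surrogate variable the Jak2V617F response was 0.22 and called (adjusted p = 0.0200). Fth1 and Ftl1 were each other's most similar gene, with r = 0.90 over 24 libraries. Ferritin rows held values that were not whole numbers in 23 and 24 of 24 libraries, so some reads were divided between loci. The ferritin pseudogenes Fth-ps2 and Ftl2 averaged 6.33 and 1.71 counts beside 16193 for Fth1 and 18176 for Ftl1. Copies were looked for only among gene names that start with Fth or Ftl, so copies under other names were not examined.

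Ratios within a library do not depend on scaling between libraries. Among 12 ratio comparisons none had an adjusted p under 0.05 in exact permutation tests. The log2 ratio of Tfrc to Fth1, uptake against storage, was -1.41 ± 0.30 in Jak2V617F vehicle and -2.03 ± 0.33 in Jak2V617F pegIFN libraries (SD, n = 6 each), a difference of -0.62 (exact two-sided permutation p = 0.00433, adjusted p = 0.0519). In WT cells the same difference was -0.30 (exact p = 0.219, adjusted p = 0.291). The Fth1 to Ftl1 ratio was higher in Jak2V617F cells of 6 of 6 vehicle mice by 0.05 (exact p = 0.0312, the smallest that 6 pairs can give, adjusted p = 0.125). The ratio of Alas1 to Fech rose by 0.29 in WT cells (exact p = 0.0173, adjusted p = 0.104), and without WT pegIFN replicate 6 the difference was 0.35 with an adjusted p of 0.0260.

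Ireb2, which encodes the iron regulatory protein IRP2 (chr9:54863755-54912534), had medians of 106, 95.3, 104 and 105 CPM in WT vehicle, WT pegIFN, Jak2V617F vehicle and Jak2V617F pegIFN libraries. All libraries lay between 88.5 and 115 CPM, and no pair of groups separated. Its 4 log2 differences were between -0.09 and 0.07, with adjusted p of 0.248 or more. Upper-quartile factors made the WT response -0.18, which was called (adjusted p = 0.0338). The 95% interval of the WT response was -0.23 to 0.04 with the TMM factors used throughout. IRP2 is known to be set mainly by degradation of the protein, which RNA counts do not measure.

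Alas1, the housekeeping form of the first enzyme of haem synthesis (chr9:106233455-106248126), differed by small amounts in all 4 comparisons. It ran from 32.6 to 36.1 CPM in WT vehicle libraries (median 34.3) and from 34.9 to 45.5 CPM after pegIFN (median 42.7). In Jak2V617F cells it ran from 32.6 to 59.0 CPM (median 44.02) and from 43.1 to 63.1 CPM (median 56.8). All the compared groups overlapped, WT vehicle being the lowest and tightest and Jak2V617F pegIFN the highest. The pegIFN change was 0.28 ± 0.12 in WT (adjusted p = 0.0488) and 0.29 ± 0.12 in Jak2V617F cells (adjusted p = 0.0468). Jak2V617F cells exceeded WT cells in 5 of 6 mice under each treatment, by 0.41 ± 0.12 with vehicle (adjusted p = 0.0261) and 0.43 ± 0.12 with pegIFN (adjusted p = 0.0278).

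These Alas1 calls sat close to the threshold. The WT pegIFN call was lost without any of WT pegIFN replicates 1 to 4 or WT vehicle replicates 1, 3, 4, 5 and 6 (adjusted p 0.0531 to 0.0852), and the Jak2V617F call in 20 of 24 such fits (0.0527 to 0.132), all but those without WT pegIFN replicate 6, Jak2V617F pegIFN replicate 3 or Jak2V617F vehicle replicates 4 and 5. With DESeq2 the WT adjusted p was 0.0511, and with upper-quartile factors it was 0.178. The genotype call was lost without WT vehicle replicates 4, 5 or 6 or Jak2V617F vehicle replicates 4 or 5 under vehicle (0.0547 to 0.0750), and without any WT pegIFN replicate or Jak2V617F pegIFN replicates 1, 4, 5 or 6 under pegIFN (0.0502 to 0.0849). Fitted log2 differences were 0.22 or more in each fit without 1 library. Without the 2 libraries that stood apart none of the 4 Alas1 differences was called, and blocked without their mice the genotype differences were 0.29 (adjusted p = 0.147) and 0.41 (adjusted p = 0.0655). Alas1 was most similar to Atp8b4, Bzrap1 and Ms4a3 (r = 0.88 to 0.90 over 24 libraries). Granulocyte markers, highest on average for Mpo, Prtn3 and Elane, summed to 150.5 to 641 CPM in WT pegIFN and 819 to 1444 CPM in Jak2V617F pegIFN libraries. Under vehicle their sums overlapped, at 300 to 1021 CPM in WT and 325 to 2384 CPM in Jak2V617F libraries. The part of these markers in the Alas1 differences was not tested.

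Fech, ferrochelatase, which puts iron into the finished porphyrin ring, had medians of 46.1, 46.4, 44.2 and 48.2 CPM in WT vehicle, WT pegIFN, Jak2V617F vehicle and Jak2V617F pegIFN libraries. Every group overlapped every other, between 38.8 and 56.0 CPM. Its log2 differences were -0.02 ± 0.07 (WT response), 0.11 ± 0.07 (Jak2V617F response), -0.13 ± 0.07 (genotype under vehicle) and 0.0069 ± 0.066 (genotype under pegIFN), with adjusted p of 0.178 or more. With 1 surrogate variable the Jak2V617F response was 0.19 and called (adjusted p = 0.0455). Fech was most similar to Plcl2, March8 and Rhd, at r = 0.70 to 0.74.

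Hmox1, the inducible haem oxygenase that opens the haem ring and releases its iron (chr8:75093591-75100596), varied most within groups. It ran from 1.75 to 16.9 CPM in WT vehicle libraries (median 6.06) and from 2.03 to 7.62 CPM after pegIFN (median 3.83). In Jak2V617F cells it ran from 2.17 to 31.7 CPM (median 9.45) and from 3.51 to 20.8 CPM (median 8.93). The coefficient of variation was 48.2 to 86.2%, and all groups overlapped. The pegIFN change was -0.85 ± 0.58 in WT (adjusted p = 0.223) and -0.44 ± 0.57 in Jak2V617F cells (adjusted p = 0.563). Both changed sign with 1 surrogate variable in the design, to 0.55 and 0.82, neither of them called.

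Under pegIFN the Jak2V617F cells of 6 of 6 mice had more Hmox1 RNA than their WT neighbours, at within-mouse log2 differences of 0.27 to 2.24. The difference was 1.30 ± 0.59 (adjusted p = 0.176), with the block 1.25 ± 0.30 (adjusted p = 0.00960), and blocked without the mice of the 2 libraries 1.03 (adjusted p = 0.00295). Under vehicle 5 of 6 mice were higher, at 0.89 ± 0.57 (adjusted p = 0.310), and with the block 0.71 (adjusted p = 0.0873). The difference between responses was 0.41 ± 0.81 (adjusted p = 0.904). Among the genes most similar to Hmox1 were Fcna (r = 0.91 over 24 libraries) and Ccr3 (r = 0.88).

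Macrophages, which break down red cell haem, express Hmox1 and Slc40a1 strongly, and the sort would remove them. Summed over 14 markers, led by Lyz2, Cd163 and Vcam1, macrophage markers were 181 to 319 CPM in WT vehicle, 101 to 224 in WT pegIFN, 182 to 364 in Jak2V617F vehicle and 134 to 357 CPM in Jak2V617F pegIFN libraries. The Jak2V617F vehicle replicates 2 and 4, highest in Hmox1 at 31.7 and 26.7 CPM, had sums of 364 and 348 CPM. Jak2V617F pegIFN replicate 1, at 20.8 CPM of Hmox1 and 48.7 CPM of Slc40a1, had 357 CPM. Summed granulocyte markers in these libraries were 1144, 2384 and 1444 CPM, in the same order. Jak2V617F vehicle replicate 5 had a granulocyte sum of 1595 CPM beside 6.23 CPM of Hmox1. Under pegIFN 4 of 13 tested macrophage markers were higher and 1 lower in Jak2V617F cells, beside 4.16% and 4.43% of all genes, Marco was at 0 in 21 of 24 libraries, and C1qa ran from 0.416 to 16.9 CPM. The part of the macrophage or granulocyte markers in the Hmox1 and Slc40a1 differences was not tested. After group means were removed, Hmox1 and Slc40a1 correlated at r = 0.76 over the 24 libraries, and Hmox1 and Ftl1 at r = 0.80. With group means kept, these values were 0.45 and 0.72.

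The remaining genes of the same pathways are described by counts over fixed lists, read against the shares of all genes given above. Of 16 tested genes of iron uptake and export, 2 rose (Snx3 and Flvcr1) and 6 fell with pegIFN in WT cells, and 1 rose and 4 fell in Jak2V617F cells, with median log2 changes of -0.24 and -0.17. The most significant was Tf, transferrin itself, at 20.4 ± 9.02 CPM in WT vehicle and 5.32 ± 1.17 CPM in WT pegIFN libraries (SD, n = 6), a log2 change of -1.94 ± 0.28 (adjusted p = 3.30e-06). In Jak2V617F cells Tf changed by -1.62 ± 0.27 (adjusted p = 6.28e-05). Ndfip1, an adaptor of ubiquitin ligases that act on DMT1, fell by 0.31 in WT and 0.33 in Jak2V617F cells on the log2 scale. Snx3, a sorting nexin for transferrin receptor recycling, rose by 0.36 and 0.27. Between genotypes, Steap4 was higher in Jak2V617F cells in both treatments but at means of 0.0904 to 0.757 CPM, near the limit of detection, and under vehicle Cp was also higher and Slc46a1 lower.

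Of 6 tested genes of iron storage and its control, 3 rose and 3 fell in WT cells, and 2 rose and 1 fell in Jak2V617F cells, with medians of -0.14 and -0.13. Pcbp1, a chaperone that brings iron to ferritin, went from 454 ± 32.5 to 683 ± 48.6 CPM in WT cells (log2 change 0.59 ± 0.06, adjusted p = 3.94e-08) and rose by 0.42 in Jak2V617F cells. Ncoa4, the receptor for breakdown of ferritin in lysosomes, went from 260 ± 27.4 to 191 ± 14.3 CPM in WT cells (-0.45 ± 0.07, adjusted p = 9.35e-06) and changed by -0.21 in Jak2V617F cells. Fbxl5, which marks IRP2 for degradation, fell in WT cells by 0.43. Erfe, at a mean of 2.77 CPM in WT vehicle cells, also fell there. Aco1, the other iron regulatory protein, was lower in Jak2V617F than WT cells under pegIFN (-0.26, adjusted p = 0.00987), and Ncoa4 was lower under vehicle (-0.24, adjusted p = 0.0268).

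Of 16 other genes of haem synthesis, 10 rose and 3 fell with pegIFN in WT cells and 9 rose and 3 fell in Jak2V617F cells, with medians of 0.26 and 0.17. Abcb6, a porphyrin transporter, rose from 17.3 ± 1.06 to 28.1 ± 3.97 CPM in WT cells (0.70 ± 0.09), Alad by 0.48 in WT cells and Cpox by 0.62 in Jak2V617F cells. The genes that fell in both genotypes were Alas2, Ppox and Slc25a37, the mitochondrial iron importer. Alas2, the erythroid form of the enzyme that Alas1 encodes, fell from 8.32 ± 6.21 to 0.637 ± 0.358 CPM in WT cells (-3.69 ± 0.49, adjusted p = 1.37e-06) and changed by -2.88 in Jak2V617F cells. Late erythroid markers, a list that holds Alas2, summed to 292 to 1026 CPM in WT vehicle and 144 to 188 CPM in WT pegIFN libraries, with Hemgn, Hba-a2 and Hbb-b1 highest on average, and their part was not tested. Tmem14c, a porphyrinogen carrier, was higher in Jak2V617F than WT cells under vehicle (0.39) and pegIFN (0.30).

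Of 15 genes of haem breakdown and its response, 7 rose and 2 fell (Bach1 and Srxn1) in WT cells and 6 rose and 1 fell (Bach1) in Jak2V617F cells, with medians of 0.15 and 0.17. Keap1, which holds the antioxidant factor NRF2 in check, rose by 0.70 ± 0.06 in WT and 0.56 in Jak2V617F cells, and Blvrb, a biliverdin reductase, by 1.23 ± 0.18 and 0.85. Eif2ak1, the haem-regulated kinase, rose by 0.33 and 0.25. Bach1, the haem-sensing repressor of Hmox1, changed by -0.38 in WT and -0.32 in Jak2V617F cells, and was lower in Jak2V617F than WT cells under vehicle (-0.29, adjusted p = 0.0367). Hmox1 itself was not called in any of these comparisons without the block.

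Iron-sulfur cluster genes rose in the largest number, 12 of 18 with 1 lower (Isca1) in WT cells and 12 with none lower in Jak2V617F cells, with medians of 0.32 and 0.28. Glrx5 went from 58.1 ± 2.77 to 95.6 ± 10.5 CPM in WT cells (0.72 ± 0.09, adjusted p = 3.79e-07), Nubp2 from 52.1 ± 3.04 to 78.4 ± 3.68 CPM (0.59 ± 0.06) and Fdx2 by 0.66. Jak2V617F cells had 6 of the 18 higher than WT under vehicle and 4 under pegIFN, with none lower. Glrx5, Bola3 and Fdx2 led under vehicle, at 0.37, 0.34 and 0.29, and Iscu, Nfu1 and Isca2 under pegIFN, at 0.23, 0.26 and 0.32.

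**Figure D5:**
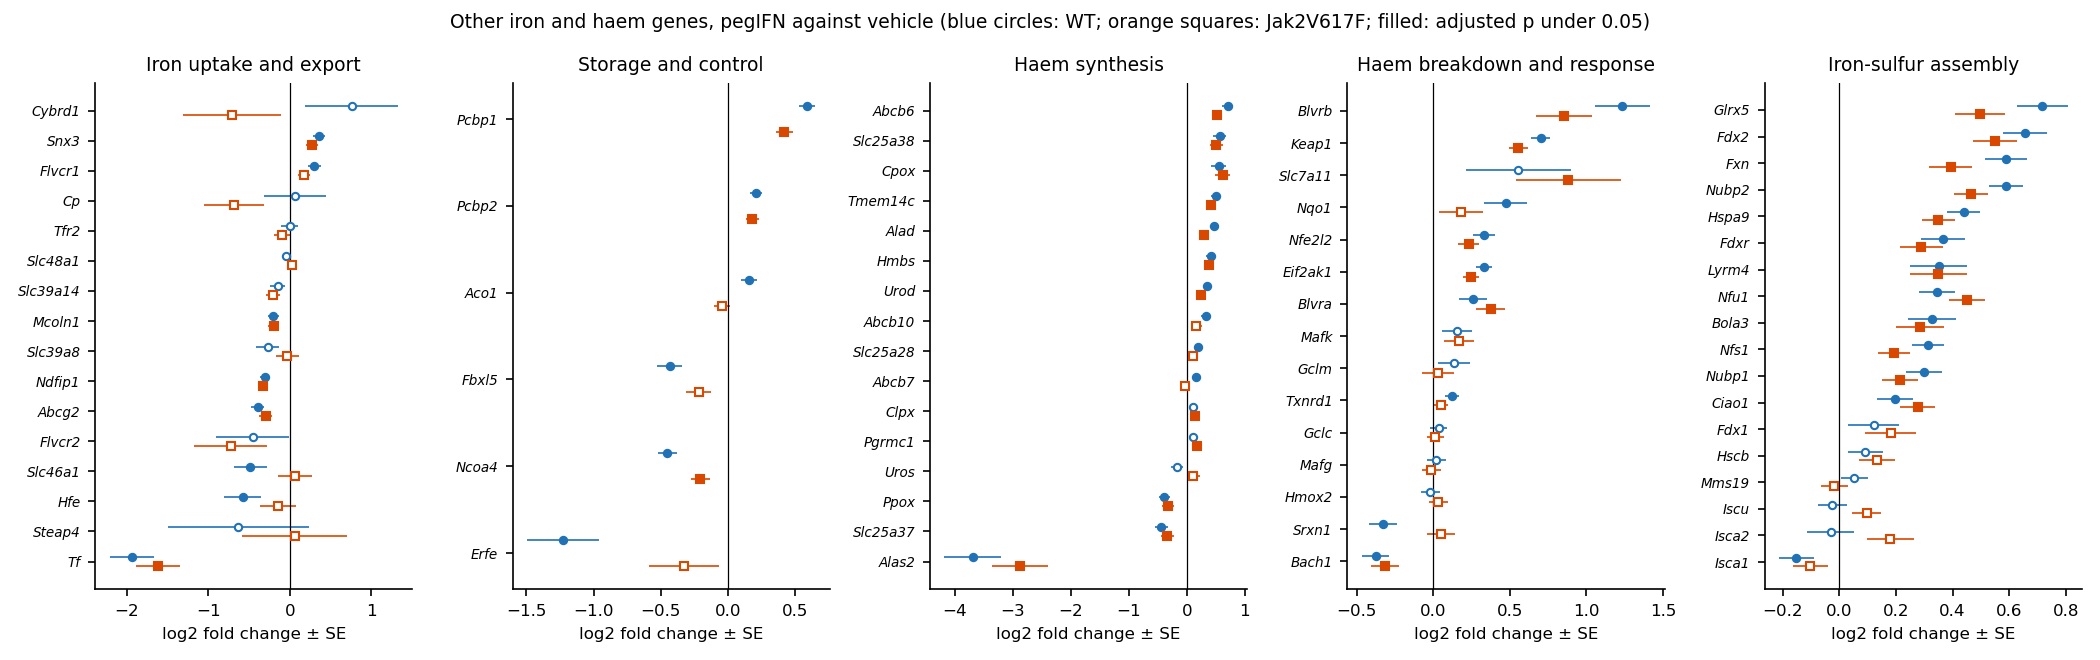
Fitted log2 fold changes with standard errors (horizontal axes, scaled per panel) of the other iron and haem genes for pegIFN against vehicle, by list; blue circles are WT, orange squares Jak2V617F, and filled symbols have an adjusted p under 0.05. Alas2 and Tf lie farthest to the left of 0, and most iron-sulfur genes lie to the right in both genotypes.

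Over the remaining members, likeness across the 24 libraries was highest for Eif1, Tial1 and AC025794.1 with Tfrc (r = 0.79 to 0.85), for Nags, Alkbh1 and Gpr77 with Slc40a1 (r = 0.87 to 0.88) and for Matr3, Mzt1 and Dnm1l with Ireb2 (r = 0.86). Heatr1 followed Necap2 for Steap3, and Scamp3 did for Slc11a2, at r = 0.97 and 0.96. Gm10116 was second for both ferritin genes, at r = 0.84 for Fth1 and 0.87 for Ftl1, followed by Iscu for Fth1 and Adap2 for Ftl1. Whether reads divided between loci had a part in the likeness of Gm10116 was not tested. Tfrc correlated with Steap3 at r = -0.38 and with Slc11a2 at r = -0.38 over the same libraries. After group means were removed, these values were 0.25 and 0.17, so the negative sign was not seen within groups.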

How the data were processed

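Polyadenylated RNA of sorted cells was sequenced as single-end 75 bp reads from NEBNext Ultra II libraries, per the labels' protocols. The authors deposited expected counts per gene; cutadapt 1.11, STAR 2.5.2a, RSEM 1.2.30 and GRCm38 are named in the submitters' processing notes, and the annotation release is not given in the sources used here. RSEM divides reads that fit several genes, and 16.8% of the values were not whole, so they were rounded before testing. No reads were used, so the mutation was not examined.

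The main test was edgeR 4.0.16 in R 4.3.3 (robust quasi-likelihood, TMM factors, filterByExpr with a minimum count of 10, 4 group means over all 24 libraries, no block), with Benjamini-Hochberg adjustment over 15879 genes and calls at an adjusted p under 0.05. SE is the log2 change divided by the square root of F. CPM used TMM-scaled library sizes. Libraries held 24620821 to 39740656 counts, and the rarest member, Hmox1, had at least 49. The biological coefficient of variation shared by all genes was 18.6%.

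The number in each library name was taken as the mouse, since recipients carried both genotypes. In the check of this pairing, deviations from group means correlated at 0.12 to 0.42 (median 0.28) within the 12 pairs, and 11 of 12 pairs correlated best with their own partner. Mice are separate animals within a treatment, and numbers pair nothing across treatments. The pipeline was tested on simulated data.

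Alternatives were RLE and upper-quartile factors, DESeq2 1.42.0, no filter on low counts, 1 CPM required in 12 libraries, only the groups compared, the mouse as a fixed block in edgeR or a random block in limma-voom (limma 3.58.1), 1 surrogate variable from sva 3.50.0, omission of single libraries, and leaving out the 2 libraries or 2 mice that stood apart on sex-linked genes. The blocked fit without those mice was added after seeing the data. The members, the 15 gene lists (198 distinct genes, all matched, 11 under another symbol) and these alternatives were chosen with earlier results of these data known. Named genes are the 10 members, up to 3 called genes with the smallest p per iron or haem list and comparison, the 3 highest markers per list used and the 3 genes most like each member, of which 1 is not reported here. Named outside that rule, after their values were seen, were Flvcr1, Erfe, Ppox, Slc25a37, Srxn1, Isca1, Xist, Slamf1, Ly6a, Rhag, Marco, C1qa and, in comparisons where the rule does not name them, Bach1 and Ncoa4. Start-site windows were RefSeq's.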

Additional observations from a re-analysis of the deposited data

Results flagged for a closer look

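In 40 group-by-gene sets of 6 values, a gap test at the 95% level marked 2, where chance alone marks about 5%. Slc40a1 was 48.7 CPM in Jak2V617F pegIFN replicate 1, while the other 5 libraries of its group lay between 14.7 and 24.6 CPM. This library also stood apart on Xist and had 357 CPM of summed macrophage markers, and the part of either was not tested. Ireb2 was 88.5 CPM in WT vehicle replicate 1, while the other 5 lay between 103 and 112 CPM.

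The responses to pegIFN differed between genotypes, by the test of the difference itself with the mouse as a block, for Slc11a2 (-0.62 on the log2 scale, adjusted p = 0.00461) and Steap3 (-0.67, adjusted p = 0.0261). Blocked without the 2 mice whose libraries differed from their groups on Xist, the Slc11a2 difference was -0.60 (adjusted p = 0.0227) and the Steap3 difference was -0.63 and no longer called (adjusted p = 0.113). Without the block neither difference was called by edgeR over all 24 libraries.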

How the results depend on the processing

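The pegIFN calls of Steap3 and Slc11a2 in both genotypes and of Slc40a1 in WT cells passed the threshold in every alternative run. Counts of called members moved as follows. In WT cells 0 members fell with pegIFN, and 3 did with upper-quartile factors. In Jak2V617F cells 3 were higher and 0 lower: with 1 surrogate variable 5 were higher, and with upper-quartile factors, DESeq2, the 1 CPM filter, only the groups compared or limma-voom 1 was lower. For genotype under vehicle 1 was called, higher: DESeq2 and 1 surrogate variable gave 2, only the groups compared 0, the replicate block (mouse) 4, limma-voom 4, leaving out the 2 libraries or their mice 0, and the block without those mice 3. For genotype under pegIFN 2 were higher and 1 lower: no filter gave 0 higher and 1 in all, the replicate block 5 higher, 2 lower and 7 in all, limma-voom 4, 2 and 6, leaving out the 2 libraries or mice 0, and the block without those mice 1 higher. For the difference between responses 0 were called, DESeq2 gave 1, the block 2, limma-voom 2 and the block without those mice 1, all lower. The cause of these shifts was not tested. Over all 12 mice, the block changed no member call other than those given for Tfrc, Steap3, Slc11a2, Ftl1 and Hmox1.

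Without 1 library at a time, members called ranged from 3 to 4 (WT response, 0 to 1 lower), 2 to 6 (Jak2V617F response, 0 to 1 lower, the most without Jak2V617F vehicle replicate 4), 0 to 3 (genotype under vehicle), 0 to 3 (under pegIFN, 0 to 2 higher and 0 to 2 lower) and 0 to 1 (difference between responses). The Alas1 to Fech ratio in WT cells ranged from 0.24 to 0.35 and the Fth1 to Ftl1 ratio from -0.029 to 0.0027.

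Every value whose sign changed under an alternative was not called to begin with. Fech between genotypes under pegIFN went from 0.0069 to -0.0047 (RLE), -0.0042 (DESeq2), -0.0069 (no filter), -0.00037 (1 CPM filter), -0.0016 (only the groups compared), -0.0056 (1 surrogate variable), -0.013 (without the 2 libraries), -0.029 (without their mice) and -0.028 (block without them). Its WT response of -0.021 became 0.013 (no filter), 0.077 (1 surrogate variable), 0.030 and 0.051 (without the libraries or mice). Fth1 between genotypes under vehicle went from -0.0023 to 0.0049 (no filter), 0.0025 (1 surrogate variable) and 0.0026 (without the 2 libraries), and Ireb2 from 0.0023 to -0.0097 (RLE and DESeq2), -0.029 (upper quartile) and -0.020 (1 CPM filter). With 1 surrogate variable Ftl1 in WT cells became 0.027 and Hmox1 0.55 (WT) and 0.82 (Jak2V617F). Slc40a1 between genotypes under pegIFN became -0.0030 in the block without the 2 mice, and the Alas1 difference between responses -0.0085 (no filter) and -0.0045 (without the 2 libraries).
Without 1 library at a time, values that crossed 0 ranged from -0.023 to 0.030 (Fech, genotype under pegIFN), -0.035 to 0.030 (Fech in WT), -0.040 to 0.032 (Fth1, genotype under vehicle), -0.039 to 0.029 (Ireb2, genotype under vehicle) and -0.053 to 0.0024 (Ireb2 in Jak2V617F). For the difference between responses they ranged from -0.069 to 0.11 (Alas1), -0.0070 to 0.81 (Hmox1), -0.71 to 0.052 (Slc40a1) and -0.23 to 0.047 (Tfrc).

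Over all genes, calls for genotype under vehicle were 2018 and 4944 with the block, 5297 with limma-voom, 1152 with only the groups compared, 999 without the 2 libraries and 3959 blocked without their mice, with 672 lower against 1127 (DESeq2), 437 (no filter) and 444 (without the mice). Under pegIFN they were 1364 and 3910, 3909 (limma-voom), 653, 487 (without the mice) and 2530, with 661 higher against 364 (no filter) and 1077 (1 surrogate variable). For the difference between responses they were 0, and 528, 290 (limma-voom), 46 (DESeq2), 1 (1 surrogate variable) and 104 (block without the mice). In Jak2V617F cells 3446 genes rose with pegIFN, and 2282 with 1 surrogate variable. The fewest counts in a library were 49 for Hmox1 and 96 for Slc40a1, and the part of depth in their results was not tested.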
